A study of Mus musculus with 9 samples.

Results

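Glia carrying mutant human superoxide dismutase 1 (SOD1-G93A) were compared with nontransgenic glia across all genes measured on 6 Illumina mouse BeadArrays, 3 per group. The comparison took every probe whose detection p, the chance of so bright a signal from a probe with no target, lay under 0.01 on at least 3 of the 6 arrays: 13484 of the 24613 probes on the array. Of these probes 11880 had 1 gene symbol, and they stood for 9561 of the 15964 genes with a probe on the array. The question, from the title of the series, was which genes are candidates for the toxicity of SOD1-G93A glia.

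SOD1 is a copper and zinc enzyme that turns superoxide into oxygen and hydrogen peroxide, and dominant mutations of it cause amyotrophic lateral sclerosis, a loss of motor neurons. The glia of the brain and spinal cord include astrocytes, microglia and oligodendrocytes, and astrocytes that carry mutant SOD1 are known to harm motor neurons grown with them. Astrocytes clear glutamate and potassium and couple through gap junctions, and activated glia secrete chemokines, which draw immune cells along a gradient.

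Primary cultures were made from pups of postnatal day 1 to 3, from tissue freed of meninges, and harvested when confluent in medium with horse serum. Nontransgenic pups (B6SJL 2Gur/J in the labels) had no transgene, and mutant pups (B6SJL-Tg(SOD1*G93A)2Gur/J) carried human SOD1 with the G93A change. A further 3 arrays held glia with normal human SOD1 (SOD1-WT, B6SJL-Tg(SOD1)2Gur/J), which entered the normalisation and the estimate of spread. Their means are given beside the others for a part of the named genes, as a description only. A change without a SOD1-WT mean beside it is not shown to be particular to mutant glia. All 3 lines shared the mixed B6SJL background, each transgene was studied in 1 line, and the promoter of the transgenes, the litters and the sex of the pups are not given in the labels. The replicates are biological per the design text. Since litters are not stated, p-values measure the spread between these cultures.

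The 6 arrays detected 13107 to 13584 probes each, with 34.8 to 35.7 beads per probe on average and mean signals of 211 to 236 units. SOD1-WT replicate 3 was brighter, at a mean of 279.6 units. Arrays correlated at 0.992 to 0.995 among nontransgenic cultures, at 0.995 among mutant cultures and at 0.978 to 0.984 between both. The first principal component of the 6 arrays held 64.2% of the variance and separated the groups, with scores of -22.3 to -15.3 for nontransgenic and 17.7 to 19.2 for mutant cultures. Precision is limited by the 3 arrays per group, and the median standard error of a log2 change was 0.11.

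The cultures had high levels of astrocyte transcripts. Slc1a3, the astrocyte glutamate transporter, had mean log2 intensities of 12.06 in nontransgenic and 12.34 in mutant glia, and Gja1, the main astrocyte connexin, had 12.58 and 12.66. Among neuron markers on the array, Syt1, Nefl, Nefm, Nefh and Dcx did not pass the detection filter, nor did any of the erythroid markers. Of 14 neuron markers that passed, 2 were higher and 1 lower, with mean list levels of 6.58 to 6.66 on nontransgenic and 6.57 to 6.64 on mutant arrays. The number higher was 0 without SOD1-G93A replicate 2 or 3 or nontransgenic replicate 1 or 3 or with median scaling, and 1 without SOD1-G93A replicate 1, SOD1-WT replicate 1 or nontransgenic replicate 2. The number lower was 2 without nontransgenic replicate 3 or SOD1-WT replicate 3 or with median scaling. Pecam1, Cldn5, Kdr and Tek of endothelium did not pass it either. Markers of microglia, oligodendrocyte lineage, meninges and choroid plexus were measured. The Y-linked probes for Kdm5d, Eif2s3y, Uty and Usp9y were detected on 0 of the 6 arrays, while Kdm5d was detected on all 3 SOD1-WT arrays. In these bulk cultures, fewer cells of a type and less RNA per cell cannot be told apart.

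At an adjusted p of 0.05 (limma's moderated test with Benjamini-Hochberg adjustment over all kept probes), 1489 of 13484 probes differed between mutant and nontransgenic glia (11.0%). Of these 713 were higher in mutant glia (5.29%) and 776 lower (5.75%). Most changes were small: 803 of the 1489 were under 1.5-fold, 203 reached 2-fold (68 higher, 135 lower, 1.51% of kept probes) and 35 reached 4-fold (15 higher, 20 lower). Without nontransgenic replicate 2, 977 probes differed (509 of them lower), and leaving out SOD1-G93A replicate 1, 2 or 3 or nontransgenic replicate 1 or 2 left 434, 445, 437, 467 and 468 higher probes. Probes detected in only one group are not tested when an array of that group is left out, since they then pass on fewer than 3 arrays. From the 5th to the 95th percentile of all kept probes, log2 changes ran from -0.44 to 0.41. At 4015 kept probes (29.8%) the values of both groups did not overlap, and 1483 of the 1489 called probes were among them.

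**Figure D1:**
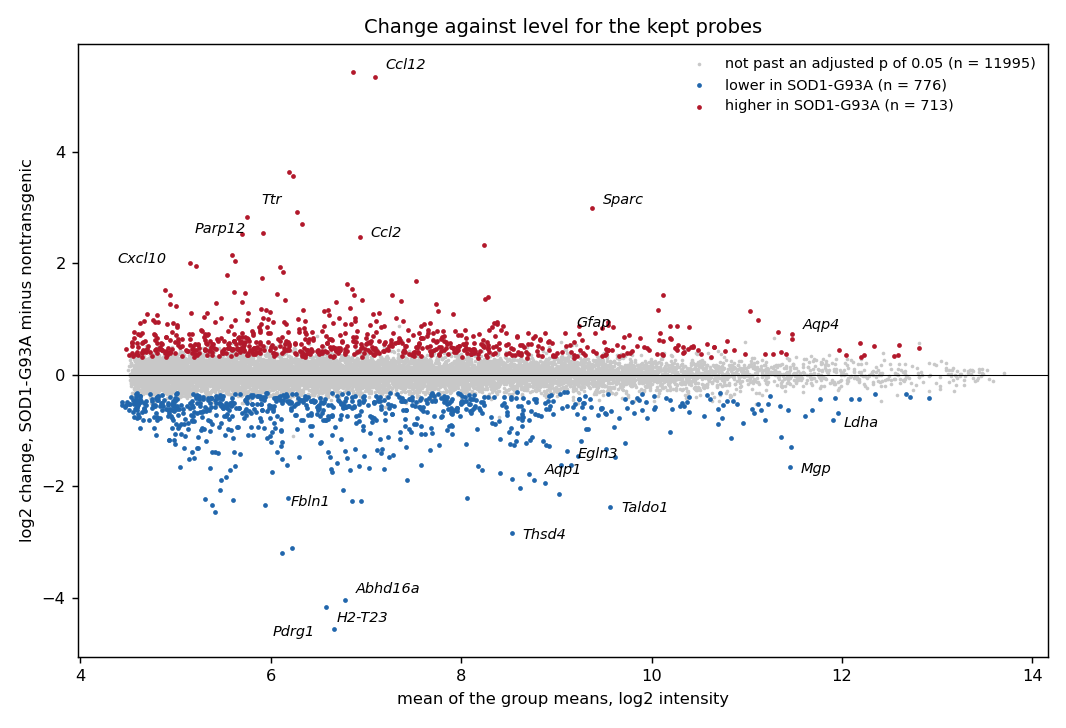
Log2 change (SOD1-G93A minus nontransgenic) against the mean log2 intensity of both groups for each of the 13484 kept probes, with 713 higher probes in red, 776 lower probes in blue and the rest in grey. Changes over 4-fold occurred in both directions and at low and middle levels, and Ccl12, Sparc, Pdrg1, H2-T23 and Abhd16a lie far outside the grey band.

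A subset of probes went from detected to undetected. Of 100 probes detected on every nontransgenic and no mutant array, 76 passed the test. Of 73 detected on every mutant and no nontransgenic array, 53 passed. Over all kept probes the share that passed was 11.0%. These sets were picked because detection separated the groups, so their high shares follow largely from the choice. The 503 probes detected on exactly 3 of the 6 arrays, just inside the filter, had a median log2 intensity of 4.62, and the 470 detected on exactly 2, just outside it, had 4.55. Among these 503, 129 passed the test (25.6%), since a probe present in only one group enters through that group. Probe sequences were not used here. At these and all other probes, in either direction, a changed transcript level and a changed match of probe to target cannot be told apart.

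Chemokines of the CC and CXC families were among the largest rises. The arrays measured 13 CC chemokines, of which 4 rose and 1 fell, with a median log2 change of 0.35, beside a median of 0.005 over all 9561 genes. Of 10 CXC, CX3C and XC chemokines 3 rose and 0 fell, with a median of 0.20 (1 rose without SOD1-G93A replicate 3). The call of the CC chemokine that fell ended without SOD1-G93A replicate 2 or 3 or any 1 nontransgenic replicate. Over all genes, each represented by its brightest probe, 5.37% rose and 6.41% fell.

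Ccl2, which attracts monocytes through the receptor Ccr2, had log2 intensities of 5.37, 5.85 and 5.86 in the nontransgenic cultures and 8.21, 8.15 and 8.17 in the mutant cultures. The groups did not overlap, and the mutant cultures differed among themselves by less than the nontransgenic ones. The log2 change was 2.48 ± 0.15 (SE, limma adjusted p = 1.3e-07). The SOD1-WT mean of Ccl2, 7.20, also lay above the nontransgenic values. Ccl12, a mouse chemokine that also acts on Ccr2, had 4.31, 4.36 and 4.60 in nontransgenic and 9.78, 9.71 and 9.82 in mutant cultures by a probe that was undetected in every nontransgenic culture. By this probe Ccl12 rose at least 35.7-fold (limma adjusted p = 1.28e-12). The second and brighter Ccl12 probe, which stands for the gene in the list count, gave the other direction without passing the test, with means of 8.71 in nontransgenic and 8.35 in mutant glia (-0.36 ± 0.14, limma adjusted p = 0.14), so the probes of this gene disagree. SOD1-WT glia also had the first probe at a mean of 9.22 and the second at 7.89.

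Ccl5, a chemokine for T cells and monocytes, had 5.49, 6.13 and 6.0 in nontransgenic and 6.85, 6.96 and 6.72 in mutant cultures, a change of 0.97 ± 0.14 (limma adjusted p = 0.000478). Ccl8 rose by 1.16 ± 0.19 and Ppbp, the precursor of a neutrophil chemokine that platelets store, by 1.11 ± 0.20 (limma adjusted p = 0.000899 and 0.00242). Each of these genes was higher in all 3 mutant cultures than in any nontransgenic one. SOD1-WT means were 5.97 for Ccl5, 6.23 for Ccl8 and 7.56 for Ppbp. Ccl5, Ccl8 and Ppbp belong, with Gmfb, Shh and Ptgdr, to the 6 genes that the study itself linked to mutant glia, all of which rose here (median 0.98). The study chose them on these samples, so this count is not independent evidence of their direction.

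Cxcl10, an interferon-induced chemokine for activated T cells, was undetected in every nontransgenic culture (4.17, 4.14 and 4.13) and had 5.95, 6.49 and 6.03 in the mutant cultures. Its level was at least 2.92-fold that of nontransgenic glia (limma adjusted p = 1.92e-07). The SOD1-WT mean of Cxcl10, 6.62, lay above the mutant mean of 6.16. Among chemokine receptors 4 of 5 measured genes rose, with log2 changes of 0.39 to 0.67, among them Ackr1 and Ackr3, which take up chemokines without the usual signalling, and Cx3cr1, the fractalkine receptor of microglia. The calls of Ackr1 and of Ccrl2, an atypical receptor without chemotactic signalling, held in every alternative that tested them, while those of Ackr3 and Cx3cr1 did not. The count fell to 1 without SOD1-G93A replicate 2 or 3 and to 2 without SOD1-G93A replicate 1 or nontransgenic replicate 2. A gene not tested without an array counted as not called there, so these drops may include genes that were not tested.

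The promoter of Cxcl10 is shown because the gene went from undetected to detected and because its window holds letters of both inflammatory regulators tested. It runs from 250 bases before to 50 after the annotated start (chr5:92348840-92349139, minus strand, RefSeq, GRCm38.p6). Capitals mark the core of the interferon-stimulated response element, GAAA repeated after any 2 bases, and the NF-kappaB motif, searched on both strands.
Cxcl10: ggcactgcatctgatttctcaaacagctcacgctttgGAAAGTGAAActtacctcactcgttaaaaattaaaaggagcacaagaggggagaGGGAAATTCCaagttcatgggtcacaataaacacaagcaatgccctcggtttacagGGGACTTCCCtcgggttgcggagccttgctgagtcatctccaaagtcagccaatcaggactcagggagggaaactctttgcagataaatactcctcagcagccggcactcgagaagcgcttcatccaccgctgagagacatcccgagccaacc
The window held 1 match to the interferon element and 2 to the NF-kappaB motif. Over all 32851 promoters of this length the shares with a match were 3.44% and 4.51%. Of the 34 measured interferon-induced genes with a promoter in the table, 16 held the interferon element. The windows of Ccl12 and Ccl8 held 0 matches to either motif.

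Interferon-induced genes did not move one way. Of 38 measured, 5 rose and 4 fell, with a median of 0.09. Parp12, an interferon-induced ADP-ribosyltransferase, had 4.56, 4.67 and 4.72 in nontransgenic and 7.05, 7.31 and 7.22 in mutant cultures (2.54 ± 0.11, limma adjusted p = 4.7e-09), and its SOD1-WT mean was 4.72. Ifi35 rose by 1.10 ± 0.10 (limma adjusted p = 4.98e-06). In the other direction, Stat2, a transcription factor of the interferon response, had 5.81, 5.87 and 6.0 in nontransgenic and 4.43, 4.58 and 4.75 in mutant cultures, a change of -1.31 ± 0.11 (limma adjusted p = 2.59e-06). Psmb9, an interferon-induced proteasome subunit that helps make peptides for MHC class I, changed by -1.47 ± 0.15 (limma adjusted p = 1.36e-05). Without SOD1-G93A replicate 2 or 3 the number that rose was 3.

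**Figure D2:**
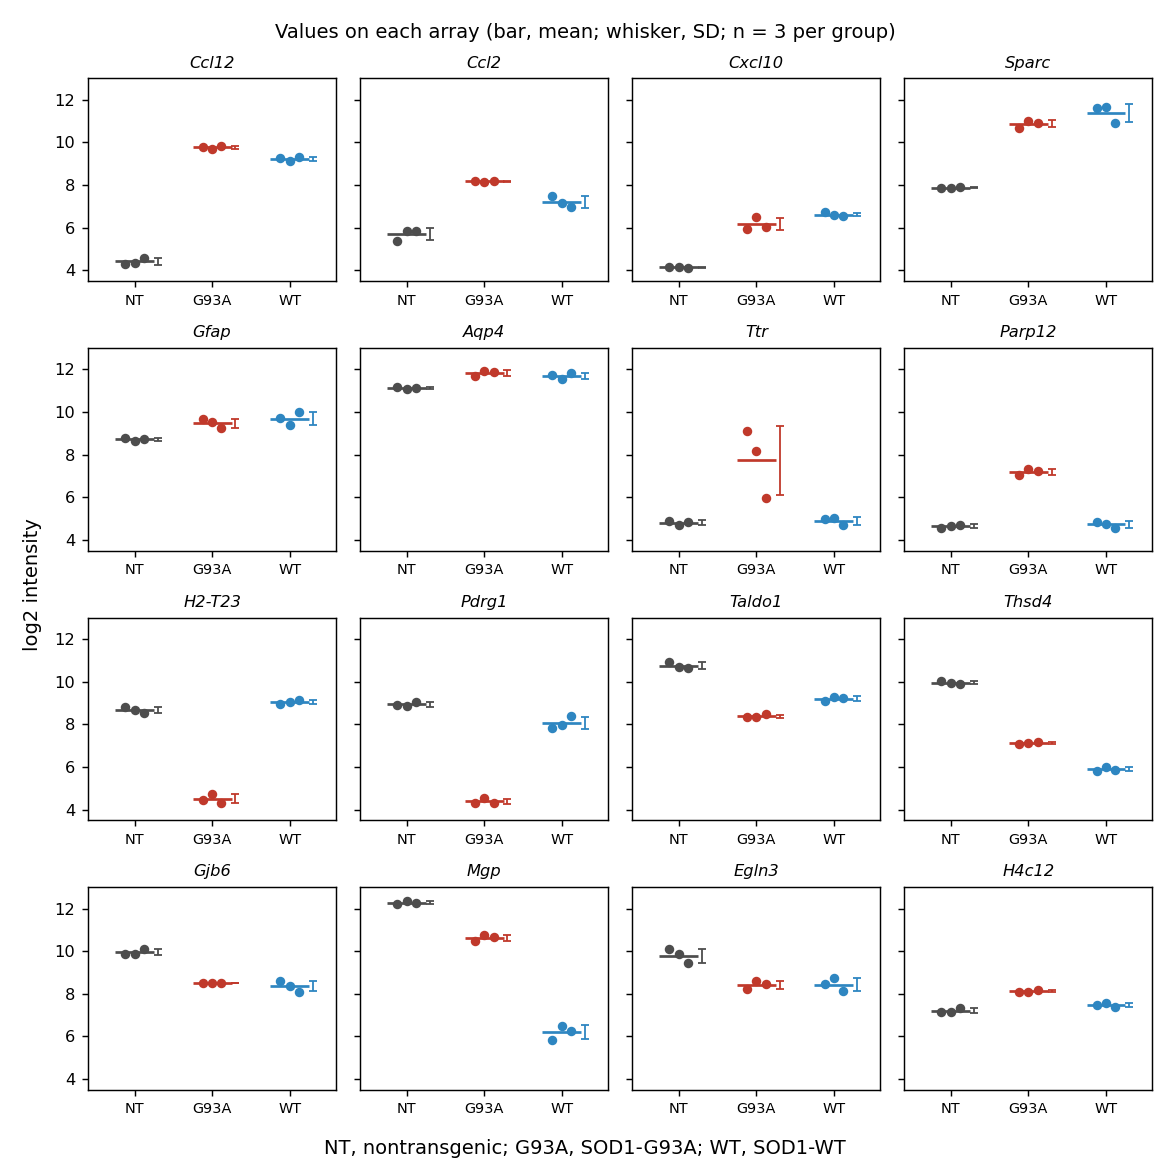
Log2 intensity on each array for 16 genes (points), with the group mean (bar) and SD (whisker), n = 3 per group. Each panel draws the called probe of largest change. That mutant and nontransgenic arrays do not overlap in any of the 16 panels therefore follows largely from the choice. The brighter Ccl12 probe, which did not pass, is not drawn. The 3 mutant values of Ttr spread from 5.95 to 9.12. SOD1-WT means lie near the mutant mean for genes such as Sparc and Egln3 and near or above the nontransgenic mean for H2-T23 and Parp12.

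A few nonclassical MHC class I genes fell. Of 18 measured genes of class I and peptide loading 0 rose, 5 fell and 13 did not pass, with a median of -0.20 (the count of falls was 3 without SOD1-G93A replicate 1 or 2 or nontransgenic replicate 2 or 3, and 3 to 7 over all arrays left out in turn). H2-T23, which encodes the mouse nonclassical molecule Qa-1, had 8.81, 8.67 and 8.52 in nontransgenic and 4.46, 4.72 and 4.30 in mutant cultures, where 1 of 3 detected it. Its change of -4.17 ± 0.12 (limma adjusted p = 5.17e-11) was followed by H2-T22, a neighbour and close relative, at -2.26 ± 0.12 (limma adjusted p = 2.83e-08), and by H2-T10 at -0.59 ± 0.09 (limma adjusted p = 0.000678). These genes have near-identical relatives, so a probe may read more than 1 of them. For these genes, Abhd16a, Pdrg1 and other probes alike, a lower transcript level and a probe that misses its target cannot be told apart. The classical gene H2-K1 (-0.13 ± 0.18, limma adjusted p = 0.756) and B2m, the shared light chain (-0.09 ± 0.11, limma adjusted p = 0.713), did not pass. SOD1-WT means were 9.03 for H2-T23 and 8.64 for H2-T22, at or above the nontransgenic means.

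Some other genes of the same stretch of chromosome 17 were lower. Between Tap1 and H2-M3, a stretch set around the class I genes, 77 measured genes lie in the RefSeq order of GRCm38.p6. Of them 9 were lower, H2-T23, H2-T22 and H2-T10 included, and 3 higher. Of the 9 lower genes 7 had a SOD1-WT mean at or above the nontransgenic one. Abhd16a, a lipase that makes lysophosphatidylserine, had 8.69, 8.82 and 8.88 in nontransgenic and 4.34, 5.52 and 4.42 in mutant cultures (-4.04 ± 0.23, limma adjusted p = 6.25e-08). C2, the complement protease precursor, changed by -1.24 ± 0.14 and Prrc2a by -1.16 ± 0.12 (limma adjusted p = 5.44e-05 and 2.11e-05). Neu1, a lysosomal sialidase, changed by -0.69 ± 0.10 (limma adjusted p = 0.000361). SOD1-WT means of C2 and Prrc2a, 5.78 and 7.21, lay below the nontransgenic means of 8.67 and 7.72. For Neu1 the SOD1-WT mean, 8.71, lay above the nontransgenic 8.57. Over the whole of chromosome 17, 52 of 456 measured genes were lower (11.4%), beside 6.41% over all genes and 3.56% to 8.38% on each of the other 19 chromosomes with at least 100 measured genes. The share of lower genes in the stretch, 9 of 77, was close to that of the whole chromosome. Both position counts were made after the values were seen and carry no test.

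**Figure D3:**
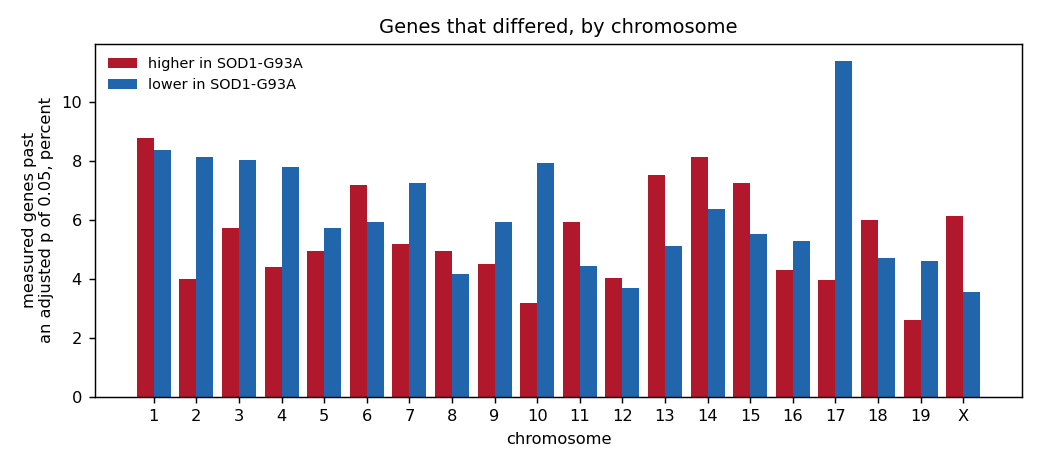
Share of measured genes that were higher (red) or lower (blue) in SOD1-G93A glia, by chromosome, for chromosomes with at least 100 measured genes. The bar of lower genes on chromosome 17, at 11.4%, stands above those of the other chromosomes, which reach up to 8.38%.

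Astrocyte markers split. Of 22 measured, 3 rose and 4 fell, with a median of 0.05 (2 fell without SOD1-G93A replicate 1 or 3 or nontransgenic replicate 1 or 2, 5 rose without SOD1-WT replicate 3, and 6 rose with an offset of 50 or with a variance trend and robust priors). The mean level over the list was 9.96 to 10.01 on the nontransgenic and 9.94 to 10.03 on the mutant arrays. Gfap, the astrocyte intermediate filament, had 8.78, 8.65 and 8.71 in nontransgenic and 9.66, 9.52 and 9.23 in mutant cultures, and rose by 0.76 ± 0.15 (limma adjusted p = 0.00441). Aqp4, the water channel of astrocyte end-feet, had 11.15, 11.06 and 11.11 against 11.69, 11.93 and 11.90, and rose by 0.73 ± 0.10 (limma adjusted p = 0.000353). Both were higher in all 3 mutant cultures than in any nontransgenic one. The SOD1-WT mean of Gfap was 9.69.

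Among 8 measured gap junction genes, 3 fell and 0 rose. Gjb6, which encodes connexin 30, had 9.85, 9.88 and 10.12 in nontransgenic and 8.50, 8.51 and 8.49 in mutant cultures (-1.45 ± 0.12, limma adjusted p = 3e-06). Its neighbour Gjb2, connexin 26, changed by -1.23 ± 0.14 (limma adjusted p = 3.75e-05). The other 5 did not pass, among them Gja1, the main astrocyte connexin (0.08 ± 0.09, limma adjusted p = 0.707). Slc38a2, an amino acid transporter that takes up glutamine, changed by -1.33 ± 0.10 (limma adjusted p = 1.39e-06). Of 27 genes listed for reactive astrocytes 4 rose and 6 fell (median 0.01). Without SOD1-G93A replicate 2 the number that rose was 2.

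Sparc, which encodes a secreted matrix protein of astrocytes that opposes synapse formation, had 7.86, 7.87 and 7.91 in nontransgenic and 10.70, 11.02 and 10.89 in mutant cultures. It rose by 2.99 ± 0.17 (limma adjusted p = 5.36e-08), and its SOD1-WT mean was 11.38. Among 13 synapse-acting secreted proteins 3 rose and 3 fell (1 fell without nontransgenic replicate 1). Thbs2, thrombospondin 2, which promotes synapse formation, fell, with a log2 change of -1.27 ± 0.10 (limma adjusted p = 1.84e-06). The genes of this group that moved therefore went in both directions.

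Microglial genes also split, with 3 of 23 markers higher and 4 lower (median 0.05), and mean list levels of 9.03 to 9.39 on nontransgenic and 9.22 to 9.38 on mutant arrays. Without SOD1-G93A replicate 3 or nontransgenic replicate 3 the number that fell was 2, and without SOD1-G93A replicate 2 or 3 the number that rose was 1. Plek, pleckstrin of myeloid cells and platelets, was undetected in nontransgenic cultures (4.25, 4.22 and 4.56) and had 7.12, 7.27 and 7.11 in mutant ones, at least 5.88-fold more (limma adjusted p = 9.45e-09). Fcer1g, the common Fc receptor gamma chain, rose by 0.99 ± 0.12, while Fcgr3, an IgG receptor that signals through that chain, changed by -1.03 ± 0.14 (limma adjusted p = 9.01e-05 and 0.000273). Outside the marker list, Gpr84, a receptor for medium-chain fatty acids on activated myeloid cells, had 5.04, 5.11 and 5.46 against 6.94, 6.82 and 7.37 (1.84 ± 0.16, limma adjusted p = 3.27e-06). SOD1-WT means were 7.78 for Plek and 7.0 for Gpr84. Cd52, a surface glycoprotein of leukocytes, had 9.25, 9.04 and 9.21 against 7.02, 7.01 and 6.82 (-2.22 ± 0.18, limma adjusted p = 1.71e-06).

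Complement genes were mostly lower where they moved. Of 17 measured, 6 fell and 1 rose, with a median of -0.14. The lower genes were C2, Cfi (factor I, a protease that inactivates C3b), Cd55 (a membrane inhibitor of the convertases), Serping1 (the C1 inhibitor), Vtn and C1qb, with log2 changes of -1.24, -1.03, -1.07, -0.63, -0.73 and -0.48, and Clu, which blocks the terminal complex, rose by 0.52. The group that fell thus held the cascade components C2 and C1qb and several inhibitors, but the call of C1qb ended without SOD1-G93A replicate 3 or nontransgenic replicate 2 or 3. Of 20 genes of prostaglandin synthesis and breakdown 5 fell and 0 rose. Ptgis, prostacyclin synthase, had 8.30, 7.88 and 7.92 in nontransgenic and 6.45, 6.26 and 6.34 in mutant cultures (-1.69 ± 0.12, limma adjusted p = 8.2e-07), and Ptges, an inducible prostaglandin E synthase, changed by -0.74 ± 0.14 (limma adjusted p = 0.00257). Ptgdr, the prostaglandin D2 receptor of the study's list, was undetected in nontransgenic cultures and at least 1.57-fold higher in mutant ones (limma adjusted p = 6.68e-06).

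**Figure D4:**
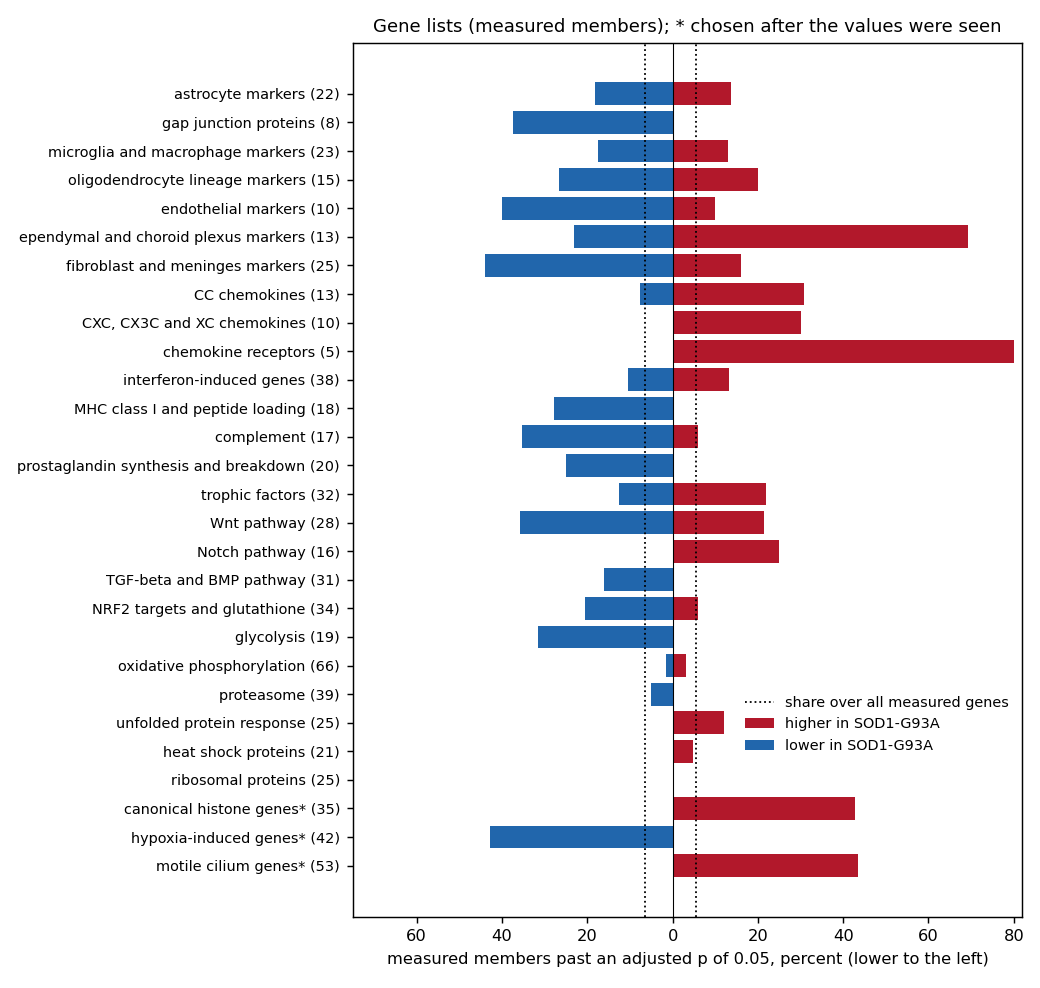
Share of the measured members of 28 gene lists that were higher (red, right) or lower (blue, left) in SOD1-G93A glia, with the number measured in brackets and dotted lines at 5.37% and 6.41%, the shares over all genes. Lists marked with a star were chosen after the values were seen; 0 of the 25 ribosomal protein genes passed in either direction.

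Many genes that hypoxia induces were lower, in a list chosen after the values were seen, for which a count and no test is given. Of 42 measured, 18 fell and 0 rose, with a median of -0.38, and 12 of the 27 that are not in the glycolysis list fell. Without SOD1-G93A replicate 1 the number was 11, and over all arrays left out in turn it was 11 to 21. The mean level over the list was 8.74 to 9.11 on nontransgenic and 8.36 to 8.51 on mutant arrays. Since the list was chosen with these values known, the gap between the groups is not independent support. In SOD1-WT glia it was 8.48.

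Angptl4, an inhibitor of lipoprotein lipase, had 7.90, 7.66 and 7.56 in nontransgenic and 6.14, 6.36 and 6.28 in mutant cultures (-1.45 ± 0.12, limma adjusted p = 3.06e-06). Egln3, an oxygen-sensing hydroxylase that marks HIF for destruction, had 10.08, 9.85 and 9.43 against 8.23, 8.60 and 8.46 (-1.36 ± 0.18, limma adjusted p = 0.000148). Ldha, lactate dehydrogenase A, had 12.44, 12.32 and 12.17 against 11.30, 11.64 and 11.56 (-0.81 ± 0.11, limma adjusted p = 0.000307). In each of them every mutant culture lay below every nontransgenic one. Stbd1, a glycogen-binding protein, changed by -1.48 ± 0.16 and Ankrd37 by -1.30 ± 0.18 (limma adjusted p = 3.31e-05 and 0.000273). Vegfa, the endothelial growth factor, had 10.24, 9.97 and 9.24 against 8.40, 9.01 and 9.11 (-0.98 ± 0.24, limma adjusted p = 0.0152), with a narrow gap between groups, and its call ended without SOD1-G93A replicate 1 or nontransgenic replicate 1 or 2 (adjusted p = 0.0824, 0.0796 and 0.0692). Of 19 glycolysis genes 6 fell and 0 rose (median -0.20), and 3 fell without SOD1-G93A replicate 1.

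The promoters of Ankrd37 and Egln3 are shown because both genes fell and both windows hold the core of the HIF site. They cover 250 bases before to 50 after the start (RefSeq, GRCm38.p6; chr8:45999801-46000100, minus strand, and chr12:54203825-54204124, minus strand), and capitals mark ACGTG on either strand.
Ankrd37: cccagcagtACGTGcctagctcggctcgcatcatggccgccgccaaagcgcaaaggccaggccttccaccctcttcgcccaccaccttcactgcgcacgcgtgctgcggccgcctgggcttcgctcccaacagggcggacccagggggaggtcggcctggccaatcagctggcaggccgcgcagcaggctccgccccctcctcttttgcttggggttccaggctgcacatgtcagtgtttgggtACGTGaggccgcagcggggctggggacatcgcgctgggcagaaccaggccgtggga
Egln3: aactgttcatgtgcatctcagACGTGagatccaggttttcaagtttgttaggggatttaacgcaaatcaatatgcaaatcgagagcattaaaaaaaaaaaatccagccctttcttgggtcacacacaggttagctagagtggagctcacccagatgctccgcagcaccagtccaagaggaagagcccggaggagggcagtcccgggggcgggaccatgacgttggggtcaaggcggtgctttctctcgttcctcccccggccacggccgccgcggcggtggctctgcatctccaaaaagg
ACGTG or its complement stood in 10 of the 16 hypoxia-induced genes that fell and have a promoter in the table, and in 19.6% of all 32851 promoters. The list was made of genes that hypoxia induces, and its members that did not fall were not counted. A part of HIF in the falls was therefore not tested. The windows held 2 matches for Ankrd37 and 1 for Egln3.

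Antioxidant genes also included more falls than rises. Of 34 NRF2 targets and glutathione genes 7 fell and 2 rose, with a median of -0.11 (1 rose without SOD1-G93A replicate 1 or 3 or nontransgenic replicate 1 or 3). Srxn1, sulfiredoxin, which repairs oxidised peroxiredoxins, had 9.35, 9.26 and 9.30 in nontransgenic and 8.24, 7.98 and 8.35 in mutant cultures (-1.11 ± 0.11, limma adjusted p = 1e-05). Nqo1, a quinone reductase, changed by -0.59 ± 0.11, and Cat, the peroxide-removing catalase of another list, by -0.87 ± 0.17 (limma adjusted p = 0.00304 and 0.00345). Glrx, glutaredoxin, moved the other way, from 9.47, 9.47 and 9.51 to 10.67, 10.66 and 10.62 (1.17 ± 0.09, limma adjusted p = 1.7e-06). Mouse Sod1 itself had 11.14, 10.81 and 10.85 in nontransgenic and 11.21, 11.06 and 11.05 in mutant cultures, groups that overlap (0.17 ± 0.11, limma adjusted p = 0.393). The transgene is human, and a mouse probe may not read it, so Sod1 does not check the labels.

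The proteostasis, oxidative phosphorylation and ribosomal lists held few changes. The other energy lists held more, with 31.6% of 19 glycolysis genes and 37.5% of 8 pentose phosphate pathway genes called. In the latter list 1 rose and 2 fell, and the rise was lost without any 1 array of the 6 compared. Of 66 oxidative phosphorylation genes 2 rose and 1 fell, of 39 proteasome genes 0 rose and 2 fell, of 21 heat shock genes 1 rose, of 25 unfolded protein response genes 3 rose and 0 fell, and of 25 ribosomal protein genes 0 passed by limma's adjusted p. The unfolded protein response count was 0 without SOD1-G93A replicate 3 or nontransgenic replicate 2 and 1 without SOD1-G93A replicate 1 or nontransgenic replicate 1 or 3. The heat shock count was 0 without any 1 SOD1-G93A replicate or nontransgenic replicate 1 or 3. For oxidative phosphorylation, 1 gene rose without any 1 SOD1-G93A replicate, and the falls were 2 without SOD1-G93A replicate 2 and 3 without SOD1-WT replicate 3. By share, the oxidative phosphorylation, proteasome and ribosomal lists lay at or under the background of 11.8% of genes called. Some single mitochondrial genes changed by more than 2-fold. Coq2, an enzyme of ubiquinone synthesis, was undetected in nontransgenic cultures (4.41, 4.41 and 4.47) and had 7.0, 7.18 and 6.71 in mutant ones, at least 5.10-fold more (limma adjusted p = 2.78e-07). Ndufb10, a subunit of complex I, had 9.32, 9.37 and 9.16 against 7.41, 7.84 and 7.33 (-1.76 ± 0.14, limma adjusted p = 1.84e-06), with a SOD1-WT mean of 9.92. Tomm22, of the mitochondrial import pore and in none of these lists, rose by 1.69 ± 0.10 (limma adjusted p = 9e-08). SOD1-WT means were 7.33 for Coq2 and 8.23 for Tomm22.

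Taldo1, transaldolase of the pentose phosphate pathway, had 10.92, 10.69 and 10.63 in nontransgenic and 8.36, 8.33 and 8.46 in mutant cultures (-2.36 ± 0.11, limma adjusted p = 7.65e-09). Pdrg1, a gene named for its regulation by p53 and DNA damage, had 8.92, 8.85 and 9.06 against 4.31, 4.53 and 4.32 and was undetected in every mutant culture. It was at least 20.1-fold lower (limma adjusted p = 7.3e-11), with a SOD1-WT mean of 8.06. Among 13 mouse orthologs of other genes of amyotrophic lateral sclerosis, 2 rose and 0 fell (1 rose without any 1 SOD1-G93A replicate, when Ang was not tested). They were Ang, the secreted ribonuclease angiogenin, which was undetected in nontransgenic cultures and at least 1.95-fold higher in mutant ones (limma adjusted p = 2.96e-06), and Vcp, an ATPase of protein degradation (0.44 ± 0.09, limma adjusted p = 0.00629).

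Some replication-dependent histone genes were higher in mutant glia, in a list chosen after the values were seen. Of 35 measured, 15 rose and 0 fell, with a median of 0.35, and 9 rose with median scaling between arrays or without SOD1-G93A replicate 2 or nontransgenic replicate 2. By class, 7 of 9 H4 genes rose (median 0.75) but 3 of 10 H2A genes, whose median was -0.07. The copies of each class are near identical, so their probes may share targets and the number of genes that rose is uncertain.

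H4c12 had 7.13, 7.14 and 7.34 in nontransgenic and 8.11, 8.11 and 8.19 in mutant cultures (0.93 ± 0.10, limma adjusted p = 2.65e-05). H4c11 had 7.87, 7.62 and 8.18 against 8.80, 8.73 and 8.73 (0.86 ± 0.13, limma adjusted p = 0.00045). Their SOD1-WT means, 7.47 and 8.06, lay nearer to the nontransgenic ones. H4c1 changed by 0.84 ± 0.14 (limma adjusted p = 0.00101). The promoters of these 3 H4 genes, those of smallest p (RefSeq, GRCm38.p6; chr13:23761200-23761499, minus strand; chr13:21734784-21735083, plus strand; chr13:21750504-21750803, minus strand), are shown so that the copies can be compared, with CCAAT and TATAAA on either strand in capitals.
H4c1: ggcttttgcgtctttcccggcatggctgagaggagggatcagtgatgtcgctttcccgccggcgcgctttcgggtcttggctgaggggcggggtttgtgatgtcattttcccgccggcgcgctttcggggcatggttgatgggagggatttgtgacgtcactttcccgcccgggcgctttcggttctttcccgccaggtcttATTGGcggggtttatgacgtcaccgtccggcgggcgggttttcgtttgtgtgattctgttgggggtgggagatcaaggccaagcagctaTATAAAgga
H4c11: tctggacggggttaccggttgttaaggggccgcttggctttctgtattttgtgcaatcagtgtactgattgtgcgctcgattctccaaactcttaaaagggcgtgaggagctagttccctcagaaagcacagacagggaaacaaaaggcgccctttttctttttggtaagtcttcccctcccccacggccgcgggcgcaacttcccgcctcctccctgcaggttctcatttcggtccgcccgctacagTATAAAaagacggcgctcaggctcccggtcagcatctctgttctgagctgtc
H4c12: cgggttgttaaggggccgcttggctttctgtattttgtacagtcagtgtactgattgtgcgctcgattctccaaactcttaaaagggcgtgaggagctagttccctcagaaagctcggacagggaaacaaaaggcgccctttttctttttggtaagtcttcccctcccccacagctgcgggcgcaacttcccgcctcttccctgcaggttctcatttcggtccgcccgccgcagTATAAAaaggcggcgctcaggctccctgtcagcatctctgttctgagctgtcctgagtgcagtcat
CCAAT stood in the window of H4c1 and in neither of the others, and TATAAA in all 3. CCAAT or its complement stood in 3 of the 9 measured H4 genes and in 37.4% of all promoters. TATAAA or its complement stood in 6 of the 9 measured H4 genes and in 13.6% of all promoters.

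Few cell cycle genes rose, as over all genes, of which 5.37% were higher and 6.41% lower. Of 30 genes of G1 and S phase 4 fell and 0 rose, and of 25 of G2 and M phase 6 fell and 1 rose. The shares called were 13.3% and 28.0%, beside 11.8% over all genes. The medians were -0.14 and -0.29. Both counts depended on single arrays: for G1 and S phase the falls numbered 0 without SOD1-G93A replicate 2 and 1 without SOD1-G93A replicate 1 or 3 or nontransgenic replicate 2 or 3. For G2 and M phase they numbered 0 without nontransgenic replicate 2, 1 without SOD1-G93A replicate 1 or 2, 2 without nontransgenic replicate 3, 3 without SOD1-G93A replicate 3 or nontransgenic replicate 1, and 12 without SOD1-WT replicate 3. The rise was Pttg1, the anaphase inhibitor securin, which was undetected in nontransgenic cultures (4.55, 4.34 and 4.47) and had 8.0, 8.08 and 7.99 in mutant ones, at least 10.6-fold more (limma adjusted p = 7.65e-09). The SOD1-WT mean of Pttg1 was 9.0, above the mutant values.

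**Figure D5:**
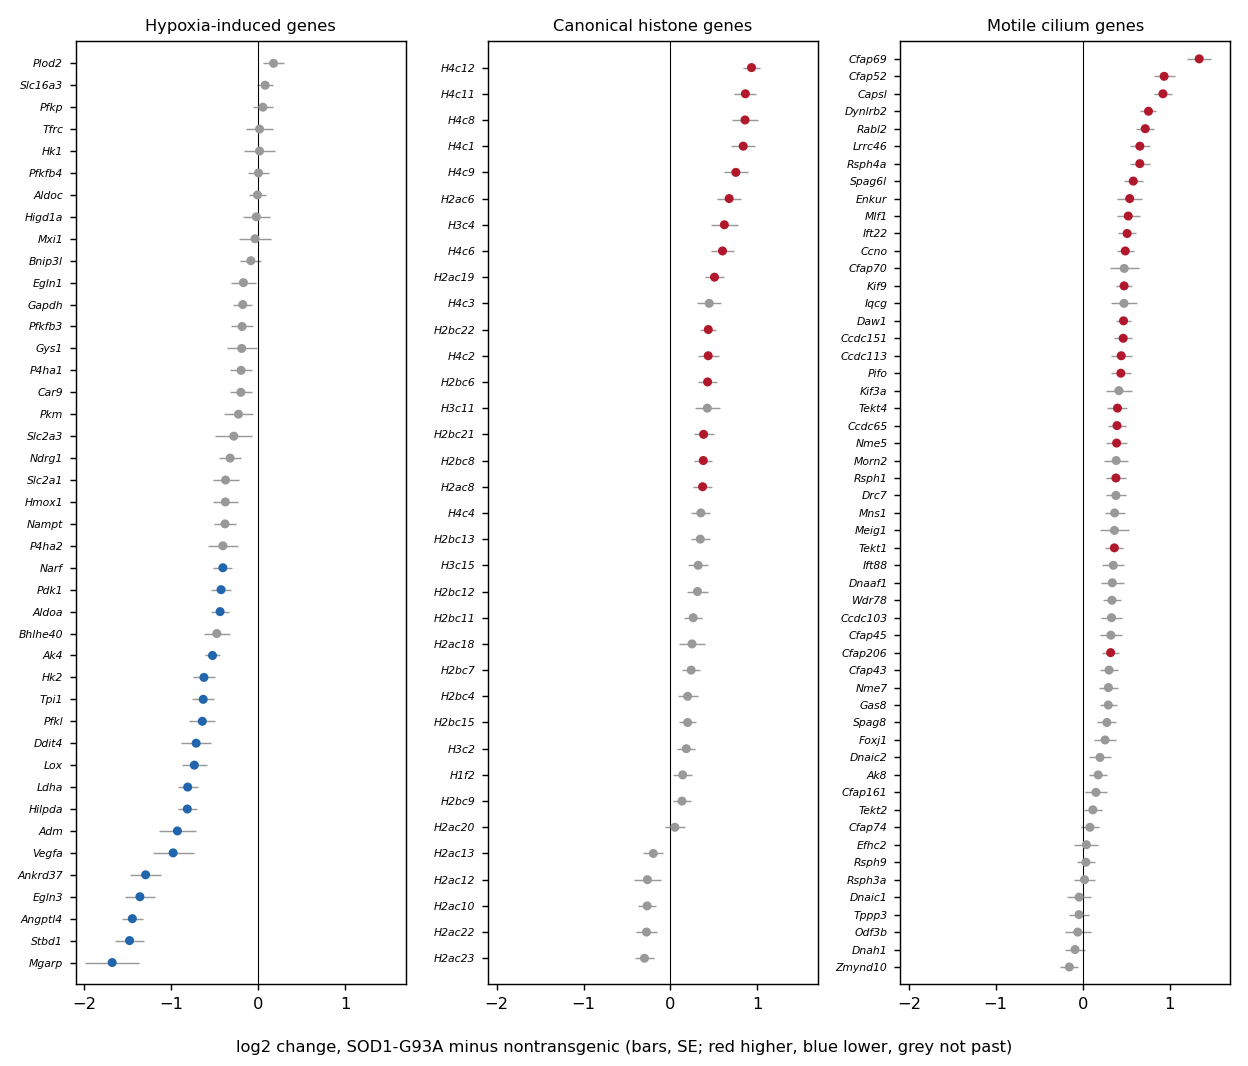
Log2 change with its SE for each measured member of 3 lists chosen after the values were seen: 42 hypoxia-induced genes, 35 histone genes and 53 motile cilium genes. Red points passed the test upward and blue points downward; 18 hypoxia-induced genes were lower, and 15 histone and 23 cilium genes were higher.

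Many genes of motile cilia, the beating cilia of ependymal cells, were higher. In a list chosen after the values were seen, 23 of 53 rose and 0 fell (median 0.37), and 13 rose without nontransgenic replicate 1 and 15 without nontransgenic replicate 3, without SOD1-G93A replicate 3 or with median scaling. Cfap69, of the ciliary axoneme, had 6.08, 6.29 and 6.50 in nontransgenic and 7.32, 7.81 and 7.76 in mutant cultures (1.34 ± 0.14, limma adjusted p = 1.82e-05), and Cfap52 had 6.10, 6.14 and 6.32 against 7.32, 7.0 and 7.05 (0.94 ± 0.12, limma adjusted p = 0.000145). Capsl rose by 0.92 ± 0.10 (limma adjusted p = 3.47e-05). In SOD1-WT glia the mean level over the list was 8.0, beside 6.54 to 6.72 on nontransgenic and 6.99 to 7.02 on mutant arrays.

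Markers of ependyma and choroid plexus moved with them. Of 13 measured, 9 rose and 3 fell, and the mean list level was 7.0 to 7.10 on nontransgenic and 7.39 to 7.66 on mutant arrays. The cilium and marker lists share 5 measured genes, and 19 of the 48 cilium genes outside the marker list rose. Ttr, the thyroid hormone carrier that choroid plexus secretes, had 4.90, 4.69 and 4.85 in nontransgenic cultures but 9.12, 8.15 and 5.95 in mutant ones, a wide spread (2.93 ± 0.52, limma adjusted p = 0.00209, and 0.0552 with a variance trend and robust priors). Folr1, a folate receptor of choroid plexus, had 6.38, 5.92 and 6.17 against 7.69, 7.50 and 7.61 (1.44 ± 0.13, limma adjusted p = 4.83e-06), and Otx2, a transcription factor that choroid plexus needs, rose by 1.63 ± 0.16 (limma adjusted p = 9.12e-06). SOD1-WT means were 4.90 for Ttr, 8.63 for Folr1 and 7.90 for Otx2. Aqp1, the water channel of choroid plexus, went against them, at 10.36, 9.58 and 9.17 in nontransgenic and 7.88, 7.74 and 7.86 in mutant cultures (-1.88 ± 0.22, limma adjusted p = 5.05e-05). Kl and Kcne2, also of choroid plexus, did not pass the detection filter. The part of these cell types in the cilium result was not tested.

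Some transcription factors that mark brain regions were higher. Of 8 markers of midbrain, hindbrain and spinal cord 4 rose and 0 fell (median 0.46), and of 6 of forebrain 2 rose and 0 fell (median 0.004). Gbx2, which sets the boundary of midbrain and hindbrain, had 5.97, 6.07 and 6.22 in nontransgenic and 7.61, 7.58 and 7.67 in mutant cultures (1.53 ± 0.11, limma adjusted p = 1.02e-06). En2, of the same boundary region, was undetected in nontransgenic cultures and rose at least 2.01-fold (limma adjusted p = 9.04e-06). The SOD1-WT means were 7.10 for Gbx2 and 5.66 for En2, above the nontransgenic ones.

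Markers of meninges and fibroblasts were lower more often than higher, although the tissue had been freed of meninges. Of 25 measured, 11 fell and 4 rose (median -0.26), and the mean level over the list was 8.74 to 8.78 on nontransgenic, 8.34 to 8.45 on mutant arrays and 6.82 in SOD1-WT glia. The number that fell was 6 without nontransgenic replicate 2 and 7 without nontransgenic replicate 1 or 3. Mgp, the matrix inhibitor of calcification, had 12.23, 12.34 and 12.27 in nontransgenic and 10.47, 10.75 and 10.66 in mutant cultures (-1.65 ± 0.14, limma adjusted p = 3.16e-06). Foxc2, a mesenchymal transcription factor, had 9.15, 8.82 and 9.02 against 7.39, 7.53 and 7.18 (-1.63 ± 0.12, limma adjusted p = 7.32e-07). Crabp2, which carries retinoic acid to the nucleus, changed by -1.83 ± 0.12 (limma adjusted p = 1.83e-07). Col1a2 went the other way, with a log2 change of 0.86 ± 0.12 (limma adjusted p = 0.000325), while Col1a1 changed by -0.59.

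Several of the largest falls were of matrix and growth factor binding genes that fibroblasts and meninges also express. Thsd4, which assembles fibrillin microfibrils, had 10.02, 9.94 and 9.90 in nontransgenic and 7.06, 7.11 and 7.17 in mutant cultures (-2.84 ± 0.10, limma adjusted p = 2.53e-10). Fbln1, fibulin 1, changed by -2.26 ± 0.14 by its brighter probe and by -1.74 ± 0.09 by the other (limma adjusted p = 1.31e-07 and 3.16e-08). Igfbp6, which binds insulin-like growth factor 2, had 9.63, 9.69 and 9.47 against 7.67, 7.95 and 7.83 (-1.78 ± 0.10, limma adjusted p = 8.03e-08). SOD1-WT means were lower still, at 5.89 for Thsd4, 4.95 for Fbln1 and 4.89 for Igfbp6. Cdh5, the junction cadherin of endothelium, changed by -0.97 ± 0.11 (limma adjusted p = 3.25e-05), and 4 of 10 measured endothelial markers fell and 1 rose (2 fell without SOD1-G93A replicate 1). The part of meningeal and vascular cells in these values was not tested.

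Among signalling pathways the Wnt list held many calls. Of 28 measured genes, 10 fell and 6 rose (median -0.17), and 6 fell without nontransgenic replicate 1 or 2. Rspo3, a secreted enhancer of Wnt signalling, had 7.54, 7.51 and 7.61 in nontransgenic and 5.85, 6.12 and 6.19 in mutant cultures (-1.50 ± 0.13, limma adjusted p = 2.89e-06). The antagonists Sfrp4 and Frzb changed by -1.09 each and the receptor Fzd7 by -0.98, whereas the co-receptor Lrp6 rose by 1.08 ± 0.11 (limma adjusted p = 2.58e-05). Ligand enhancers, antagonists and receptors thus all had lower members. Of 31 genes of the TGF-beta and BMP pathway 5 fell and 0 rose (3 without nontransgenic replicate 2), with the largest of these falls in Gdf10, a BMP-related ligand, at -1.39 ± 0.15 (limma adjusted p = 3.58e-05). Of 16 Notch pathway genes 4 rose and 0 fell, but 1 rose without SOD1-G93A replicate 1 or nontransgenic replicate 2 and 2 without SOD1-G93A replicate 2.

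Trophic factors, proteins that support neurons and glia, moved both ways, with 7 of 32 higher and 4 lower (median 0.12). Without SOD1-G93A replicate 1 or 3 the number higher was 3, without SOD1-G93A replicate 2 it was 4, and the number lower was 1 without nontransgenic replicate 1 and 2 without SOD1-G93A replicate 1 or 2 or nontransgenic replicate 2 or 3. Shh, sonic hedgehog, had 5.57, 5.55 and 5.54 in nontransgenic and 6.57, 6.49 and 6.43 in mutant cultures (0.94 ± 0.11, limma adjusted p = 7.89e-05). Gmfb, glia maturation factor beta, was undetected in nontransgenic cultures and at least 1.33-fold higher (limma adjusted p = 0.00304). Pdgfb, a platelet-derived growth factor chain, rose by 0.91, and Ptn, pleiotrophin, changed by -0.87. Both Shh and Gmfb belong to the study's list.

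Acute phase proteins and protease inhibitors, a list chosen after the values were seen, had 8 of 18 measured genes higher and 3 lower (median 0.34). Saa3, an acute phase protein that inflamed tissue makes, had 10.37, 10.52 and 10.50 in nontransgenic and 11.94, 11.48 and 11.42 in mutant cultures (1.15 ± 0.24, limma adjusted p = 0.00563, and 0.0675 with no filter on detection). The near-identical antitrypsin genes Serpina1b and Serpina1d were undetected in nontransgenic and in SOD1-WT cultures and at least 1.66-fold and 1.55-fold higher in mutant ones (limma adjusted p = 4.38e-06 and 8.91e-05). Hp, haptoglobin, rose by 0.76 and A2m, a broad protease inhibitor, by 0.89.

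Several large changes lay outside the lists. Reg3g, a secreted lectin that binds bacteria, had 8.54, 7.47 and 7.12 in nontransgenic cultures and was undetected in every mutant one (4.50, 4.52 and 4.55), at least 8.54-fold lower (limma adjusted p = 1.68e-06). Entpd3, an enzyme that degrades extracellular ATP, had 7.99, 7.93 and 7.40 against 4.68, 4.85 and 4.49, with a SOD1-WT mean of 4.24. Cdh1, the epithelial cadherin, changed by -1.89 ± 0.11 (limma adjusted p = 6.88e-08). Among the rises, Glycam1, a mucin-like glycoprotein, had 6.73, 6.79 and 7.72 in nontransgenic and 9.36, 9.33 and 9.53 in mutant cultures, with a SOD1-WT mean of 9.29. Ada, adenosine deaminase, rose by 1.49 ± 0.13 with a SOD1-WT mean of 4.71. The transcripts of Entpd3 and Ada thus moved in opposite directions, and adenosine was not measured.

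Probes of 1 gene did not always give the same result. Of 1853 genes with at least 2 kept probes, 251 had a called probe, 61 of these had all their probes called one way and 0 had probes called in opposite directions. Of 30 such genes with a call at 2-fold or more, 13 had a probe that was not called the same way. Actb, the cytoplasmic actin often used as a reference, had 4 kept probes: 1 rose by 1.44 ± 0.14 and another by 0.76 ± 0.18 (limma adjusted p = 1.26e-05 and 0.0121), while the brightest, at 13.17 in nontransgenic and 13.25 in mutant glia, did not pass (0.07 ± 0.10, limma adjusted p = 0.752). The second call ended without SOD1-G93A replicate 1 or 2. Txnl4a, a spliceosome protein, rose by 1.46 ± 0.09 by the dimmer probe and had -0.18 (limma adjusted p = 0.497) by the brighter. Kif3a, a kinesin motor of cilia, rose by 1.73 ± 0.14 by the dimmer probe and had 0.42 (limma adjusted p = 0.106) by the brighter. For genes with a single kept probe, among them Sparc, Taldo1, H2-T23 and Pdrg1, no such comparison was possible.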

How the data were processed

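Total RNA from 9 cultures was amplified, labelled with biotin and read on Illumina mouse arrays, per the labels' protocols, and processed in BeadStudio, per the submitters' processing notes (version not given in the sources used here). Per the file headers, the authors' deposited raw file gives for each probe and array an average bead intensity, the number of beads (a count), the standard error over beads and a detection p-value. From the values, these intensities were neither background-subtracted nor scaled. The authors' deposited normalised intensities, 21.8% to 23.4% of them below 0 on each array, served as an alternative on a log2 scale after 11.1 was added.

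Raw intensities of all 9 arrays were normalised with neqc (limma 3.58.1, R 4.3.3): background from negative controls inferred from the detection p-values, an offset of 16, quantile scaling and log2. Probes with a detection p under 0.01 on at least 3 of the 6 arrays compared were kept. All arrays entered 1 limma fit with 3 group means (6 residual and 7.43 prior degrees of freedom). Moderated tests were two-sided. Their p-values were adjusted over all kept probes (Benjamini-Hochberg) and called under 0.05. The summaries used Python 3.11.15 with pandas 2.3.3 and numpy 2.4.6. Symbols came from the platform annotation (20984 probes with 1 symbol, 1 with several, 3628 with none), matched by gene identifier (20968) or accession (8) to RefSeq names, with 8 kept as given and 7 updated. RefSeq positions of GRCm38.p6 served only for gene order and promoters, since the files name no build.

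Where a probe was undetected on every array of the dimmer group, the fold is a lower bound, taken against the lowest detected signal of each array or the probe's own, whichever was higher. In lists a gene stands by its brightest kept probe. Named genes were the 25 largest rises and falls and the 10 of smallest p in each direction among probes past the threshold with non-overlapping groups, up to 6 members of each list by p, Sod1, Gfap, the study's 6 genes and up to 10 genes with disagreeing probes. Genes from the lists added later, and of the chromosome 17 stretch, were named after their values were seen. The members and all lists were chosen with earlier results of these data known. On simulated data made from the 13484 probes, the fit recovered 30% of probes shifted by 0.5 (log2), 98% shifted by 1 and 100% shifted by 2. Among the shifted probes there were 0 calls of the wrong sign. The simulation shifted a small part of the probes and drew noise independently for each probe. In the data 11.0% of kept probes differed, so these shares need not hold for the comparison itself. Alternatives were other normalisations, filters, variance models, array weights, a replicate block, the 6 arrays alone and each array left out.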

Additional observations from a re-analysis of the deposited data

How the results depend on the processing

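The number of probes that differed ranged from 1238 to 2089 over the settings that kept all arrays or the 6 compared, against 1489. The stricter adjusted p of 0.01 gave 854. Leaving out each array in turn gave 977 to 1859 probes in all (977 without nontransgenic replicate 2), 434 to 913 higher and 509 to 946 lower, with 178 to 211 probes at 2-fold or more. The number at 2-fold or more depended on the offset added before the logarithm, with 112 at an offset of 50 in neqc and 104 with normexp without controls, against 203. With median scaling between arrays 41.0% of called probes were higher, against 47.9%. The labels give both groups replicates 1 to 3. Same-numbered arrays deviated together only weakly, with correlations of 0.159, 0.0245 and 0.0851, beside -0.179 to 0.131 for arrays of different numbers. Whether same-numbered cultures were prepared together is not given in the labels, and these correlations cannot decide it. With the replicate number as a block 1535 probes differed. Of 315 named probes past the threshold, 217 stayed past it in every one of the 21 alternative settings that tested them, 98 lost the call in at least 1, and 0 changed sign. The calls of Ttr, Vegfa, Saa3, Cx3cr1, Ackr3, C1qb and the second Actb probe were among those that ended in at least 1 setting. Signals near the detection limit bound the folds of the 100 and 73 probes detected in only one group, and the cause of the differences between settings was not tested.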
